A study of Mus musculus with 8 samples.

Results

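The urea cycle and ammonia handling enzymes described here are the 8 mouse genes Cps1, Otc, Ass1, Asl, Arg1, Nags, Gls2 and Glud1, chosen by name from the deposited gene table. All 8 were among its 34745 genes, and all 8 passed the filter on low counts that left 15009 genes for testing. Messenger RNA was measured by RNA sequencing in liver of age-matched male mice, 8 months after the liver carcinogen DEN (diethylnitrosamine). Tumours labelled mA3 (n = 2) and the adjacent non-tumour liver of the same mice (n = 2) came from mice injected with a pT3 plasmid for mouse APOBEC3B. Vector tumours (n = 2) and their adjacent liver (n = 2) came from mice injected with the pT3 vector. The mA3 mice are numbered 1 and 2 and the vector mice 1 and 9. All 4 groups received DEN, so adjacent liver is not liver of untreated animals, and neither the strain nor the cells that took up the plasmid are named in the labels. Tumour and adjacent libraries of the same plasmid and number are taken as coming from 1 mouse. The labels do not otherwise say that the animals are separate. The p-values set a difference against the spread between libraries of a group, pooled over the groups. The main test does not use the pairing of libraries by mouse, which enters only in the alternative with the mouse as a block.

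The urea cycle turns ammonia, which is toxic to the brain, into urea for excretion, and the whole cycle runs in hepatocytes. Its opening reactions take place in mitochondria and the rest in the cytosol, and its enzymes are most abundant in the periportal hepatocytes that meet incoming blood first. Pericentral hepatocytes capture the ammonia that passes by making glutamine with glutamine synthetase.

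Total counts ran from 12969929 to 22882531 per library, and each of the 8 enzymes had between 677 and 60460 counts in a library. Apobec3, taken as the gene on the plasmid, had 10.6 and 15.3 CPM (counts adjusted for library size by TMM scaling) in tumours labelled mA3, against 7.85 and 15.2 CPM in vector tumours. In adjacent liver it had 45.0 and 35.1 CPM in mA3 mice and 2.71 and 9.96 CPM in vector mice. Its level thus does not check the mA3 label of the tumours, and the plasmid comparison among tumours below follows the labels only. On the leading principal component of all genes (50.7% of the variance) tumours labelled mA3 scored 102 and 81.3, vector tumour 9 scored 60.7 and vector tumour 1 scored -31.8, while adjacent libraries lay between -61.2 and -42.5. Vector tumour 1 therefore stood nearer to the adjacent libraries than the other 3 tumours did.

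Promoter sequences were available for 4 of the 8 genes (Otc, Ass1, Nags and Glud1), taken from RefSeq on build GRCm38.p6. Those of Otc and Ass1 are shown because these 2 genes followed each other most closely across the 8 libraries, and that of Glud1 because this gene alone was higher in tumours labelled mA3. Each window ends at the base before the first annotated transcript start and is written 5′ to 3′ on the gene's own strand, with capitals marking matches to the GC box GGGCGG on either strand.
Otc, chrX:10252055-10252304, plus strand: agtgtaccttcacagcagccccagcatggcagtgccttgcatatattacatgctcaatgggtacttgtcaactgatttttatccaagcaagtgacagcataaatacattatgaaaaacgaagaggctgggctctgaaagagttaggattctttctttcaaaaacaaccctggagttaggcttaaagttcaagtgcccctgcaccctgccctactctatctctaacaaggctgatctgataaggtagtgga
Ass1, chr2:31470020-31470206, plus strand: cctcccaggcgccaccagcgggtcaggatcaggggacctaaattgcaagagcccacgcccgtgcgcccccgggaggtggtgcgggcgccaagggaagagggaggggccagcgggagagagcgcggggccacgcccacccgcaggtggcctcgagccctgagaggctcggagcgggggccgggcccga
Glud1, chr14:34310477-34310726, plus strand: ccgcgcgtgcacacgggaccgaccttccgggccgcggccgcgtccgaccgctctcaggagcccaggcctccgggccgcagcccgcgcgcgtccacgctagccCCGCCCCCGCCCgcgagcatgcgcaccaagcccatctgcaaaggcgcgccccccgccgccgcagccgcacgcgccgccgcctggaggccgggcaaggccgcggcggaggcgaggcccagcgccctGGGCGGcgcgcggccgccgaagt
The Glud1 window had a GC content of 82%, the Ass1 window 75.4% and the Otc window 43.6%, beside a median of 52.4% over windows of 250 bases before the start of all 32851 RefSeq promoters. Glud1 held 3 GC boxes, which began 148, 142 and 23 bases before its start, the first 2 adjoining each other. Nags, whose window is not shown, held GC boxes as well, beginning 132 and 41 bases before its start. Its level was lower, not higher, in tumours labelled mA3 than in vector tumours. Such a box was present in 32.7% of all 250-base windows and in 22.2% of windows cut to 187 bases, the length for Ass1, whose RefSeq start lies downstream of its first annotated one. Neither strand of the Otc or Ass1 window matched it or any of the other motifs searched, and no other motif matched in Glud1. These were the TATA box TATAAA (12.4% of all 250-base windows), CCAAT (33.8%), the C/EBP motif TTGCNNAA (9.56%), the cAMP response element core TGACG (17.8%), the HNF4 motif TGNACTTTG (1.19%), the FOXA motif TGTTTAC (3.17%) and an HNF1 motif (0.00913%). A missing match says only that these letters are not in the window, and the deposited data hold no measurement of binding there.

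Arg1 was the most abundant of the 8 messages per gene length in 7 of 8 libraries, and Nags the least abundant in all 8. Levels between genes are compared in the deposited FPKM (fragments scaled to gene length and library size). Arg1 had 408 and 338 FPKM in tumours labelled mA3, 682 and 892 FPKM in vector tumours, 722 and 982 FPKM in mA3 adjacent liver and 824 and 725 FPKM in vector adjacent liver. Ass1 was second in all 4 adjacent libraries and both vector tumours, where it lay between 264 and 780 FPKM, and below Arg1 and Glud1 in both tumours labelled mA3, at 138 and 213 FPKM. In tumours labelled mA3, Glud1 ranked behind Arg1 alone in tumour 1 (340 FPKM) and first in tumour 2 (424 FPKM). It was below Cps1 as well as Arg1 and Ass1 in the 4 adjacent libraries and vector tumour 9, and above Cps1 in vector tumour 1. Nags lay between 10.1 and 14.3 FPKM in all 8 libraries.

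The 5 enzymes of the cycle itself (Cps1, Otc, Ass1, Asl and Arg1) made up a smaller share of all FPKM in tumour than in adjacent liver in 3 of 4 mice. Their summed share was 0.196% and 0.232% in tumours labelled mA3, against 0.444% and 0.580% in the adjacent liver of mA3 mice 1 and 2. In vector mice 1 and 9 it was 0.292% and 0.359% in tumours, against 0.565% and 0.359% in adjacent liver. By FPKM the share was thus lower in tumour in 3 mice and almost equal in vector mouse 9. As a share of counts, which weights longer genes more, it was 0.192% and 0.260% in tumours labelled mA3 and 0.396% and 0.379% in vector tumours. The adjacent liver of the same mice had 0.588% and 0.738% of counts in mA3 mice and 0.705% and 0.508% in vector mice, so that by counts the share was lower in tumour in all 4. In bulk tissue, fewer cells of a type and less RNA per cell cannot be told apart.

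**Figure D1:**
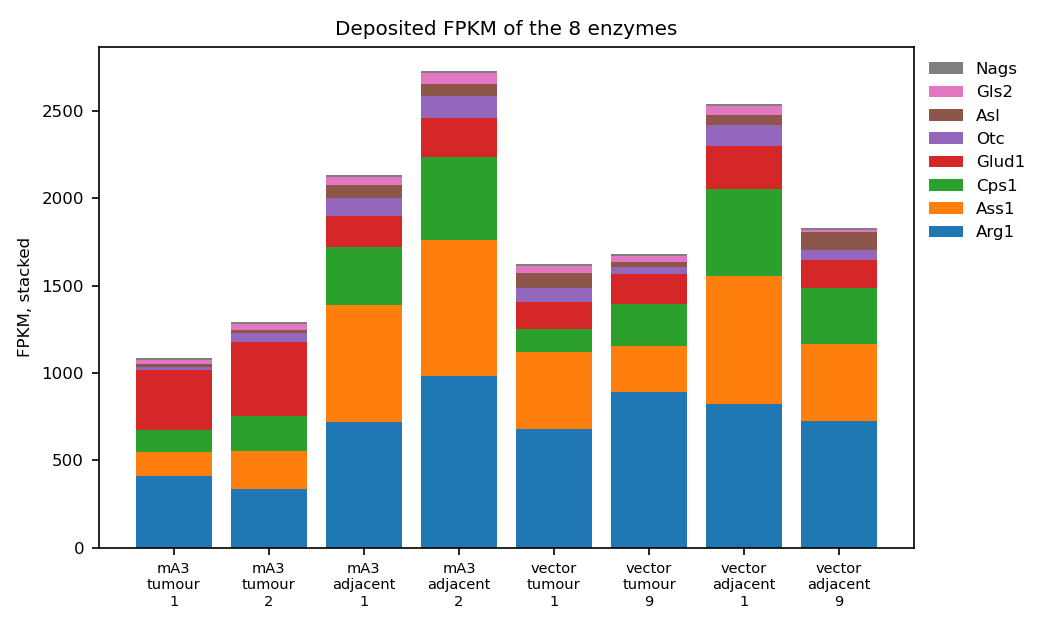
Stacked bars give the deposited FPKM of each of the 8 enzymes (y axis) in each of the 8 libraries (x axis, by plasmid, tissue and mouse number). Arg1 is the bottom part of every bar, and Glud1, at 340 and 424 FPKM, is the widest or second widest part in the 2 tumours labelled mA3.

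Nags makes N-acetylglutamate, the activator that the entry enzyme of the cycle requires (ENSMUSG00000048217, chr11:102145513-102149477, plus strand, protein coding). All positions are as the deposited table gives them, on build GRCm38 as found by matching its genes to GENCODE vM21. Nags had 46.4 and 42.2 CPM in tumours labelled mA3, 49.6 and 62.6 CPM in vector tumours, 54.2 and 58.9 CPM in mA3 adjacent liver and 57.6 and 53.1 CPM in vector adjacent liver. Tumour and adjacent libraries overlapped, vector tumour 9 being the highest of all 8. The fitted difference of tumour minus adjacent over both plasmids was -0.17 ± 0.19 (log2, SE; edgeR adjusted p = 0.650), the smallest in size among the 8 genes. An antisense gene, Gm11586, lies over Nags and had 3 counts in all libraries together.

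Cps1, carbamoyl phosphate synthetase, joins ammonia and bicarbonate and sets the pace of the cycle (ENSMUSG00000025991, chr1:67123026-67231259, plus strand). It had 705 and 1058 CPM in tumours labelled mA3 and 756 and 1325 CPM in vector tumours, against 1791 and 2577 CPM in mA3 adjacent liver and 3032 and 1813 CPM in vector adjacent liver. All 4 tumours lay below all 4 adjacent libraries, which held for no other of the 8 genes and for 5.32% of all genes tested, while 6.81% had all tumours above. The mean was 961 ± 288 CPM in tumours and 2303 ± 608 CPM in adjacent liver (SD, n = 4 each). The fitted difference was -1.26 ± 0.35 and did not pass the test (edgeR adjusted p = 0.0820).

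Otc, ornithine transcarbamylase, makes citrulline in the mitochondrion (ENSMUSG00000031173, chrX:10252305-10321024, plus strand). Its level was 90.0 and 218 CPM in tumours labelled mA3 and 351 and 160 CPM in vector tumours, against 439 and 554 CPM in mA3 adjacent liver and 585 and 252 CPM in vector adjacent liver. Vector adjacent 9 lay below vector tumour 1, so the tissues overlapped, although each tumour was below the adjacent liver of its own mouse. The mean was 205 ± 111 CPM in tumours and 458 ± 151 CPM in adjacent liver (SD, n = 4 each), and the fitted difference was -1.20 ± 0.43 (edgeR adjusted p = 0.150).

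Ass1, argininosuccinate synthetase, joins citrulline with aspartate and so brings in the second nitrogen of urea (ENSMUSG00000076441, chr2:31470207-31520672, plus strand). Ass1 had 398 and 597 CPM in tumours labelled mA3 and 1334 and 777 CPM in vector tumours, against 1899 and 2268 CPM in mA3 adjacent liver and 2391 and 1320 CPM in vector adjacent liver. The 2 tumours labelled mA3 were the lowest libraries, and vector tumour 1 overlapped with vector adjacent 9 by a small margin. The mean was 777 ± 403 CPM in tumours and 1969 ± 481 CPM in adjacent liver (SD, n = 4 each). The fitted difference of -1.44 ± 0.35 was the largest in size of the 8 and lay just outside the threshold (edgeR adjusted p = 0.0567). With the mouse as a block it was -1.45 and inside it (edgeR adjusted p = 0.0377), and over all 12 alternatives the adjusted p of Ass1 ran from 0.000223 with DESeq2 to 0.251.

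Asl, argininosuccinate lyase, releases arginine and fumarate (ENSMUSG00000025533, chr5:130011258-130029247, minus strand). It stood at 90.2 and 121 CPM in tumours labelled mA3 and 602 and 200 CPM in vector tumours, against 500 and 430 CPM in mA3 adjacent liver and 420 and 692 CPM in vector adjacent liver. Vector tumour 1 was the second highest library, while the other 3 tumours were the 3 lowest. The mean was 253 ± 237 CPM in tumours and 511 ± 126 CPM in adjacent liver (SD, n = 4 each), and the fitted difference was -1.30 ± 0.39 (edgeR adjusted p = 0.0955). Without vector tumour 1 the difference was -1.81 and passed (edgeR adjusted p = 0.0147), as did that of Ass1 at -1.66 (edgeR adjusted p = 0.0297).

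Arg1, arginase, closes the cycle by splitting arginine into urea and ornithine (ENSMUSG00000019987, chr10:24915208-24927470, minus strand). Its level was 587 and 473 CPM in tumours labelled mA3 and 1038 and 1308 CPM in vector tumours, against 1024 and 1424 CPM in mA3 adjacent liver and 1341 and 1089 CPM in vector adjacent liver. The 2 tumours labelled mA3 stood apart below the other 6 libraries, among which tumour and adjacent liver overlapped. The fitted difference was -0.63 ± 0.27 (edgeR adjusted p = 0.225).

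Gls2, the liver glutaminase, frees ammonia from glutamine inside mitochondria (ENSMUSG00000044005, chr10:128194457-128210004, plus strand). It had 182 and 248 CPM in tumours labelled mA3 and 298 and 240 CPM in vector tumours, against 320 and 466 CPM in mA3 adjacent liver and 427 and 103 CPM in vector adjacent liver. Vector adjacent 9 was the lowest library and the other 3 adjacent libraries were the 3 highest. The fitted difference was -0.42 ± 0.43 (edgeR adjusted p = 0.608), and it was 0.26 without vector adjacent 1. Gls2 overlaps Spryd4 on the opposite strand, which had 3751 counts over all libraries beside 43174 for Gls2. The strand setting is not given in the sources used here, so reads of the shared stretch cannot be assigned.

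Glud1, glutamate dehydrogenase, interconverts glutamate with 2-oxoglutarate and ammonia (ENSMUSG00000021794, chr14:34310727-34345144, plus strand). It had 1514 and 1831 CPM in tumours labelled mA3 and 738 and 782 CPM in vector tumours, against 755 and 1010 CPM in mA3 adjacent liver and 1228 and 747 CPM in vector adjacent liver. The 2 tumours labelled mA3 were the 2 highest libraries, and vector tumours lay within the range of adjacent liver or just below it. Over both plasmids the fitted difference was 0.27 ± 0.29 (edgeR adjusted p = 0.622), the only positive one among the 8. The genome also holds a processed pseudogene, Glud-ps, which matched no row of the deposited table, and how reads fitting both were counted is not given in the sources used here.

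**Figure D2:**
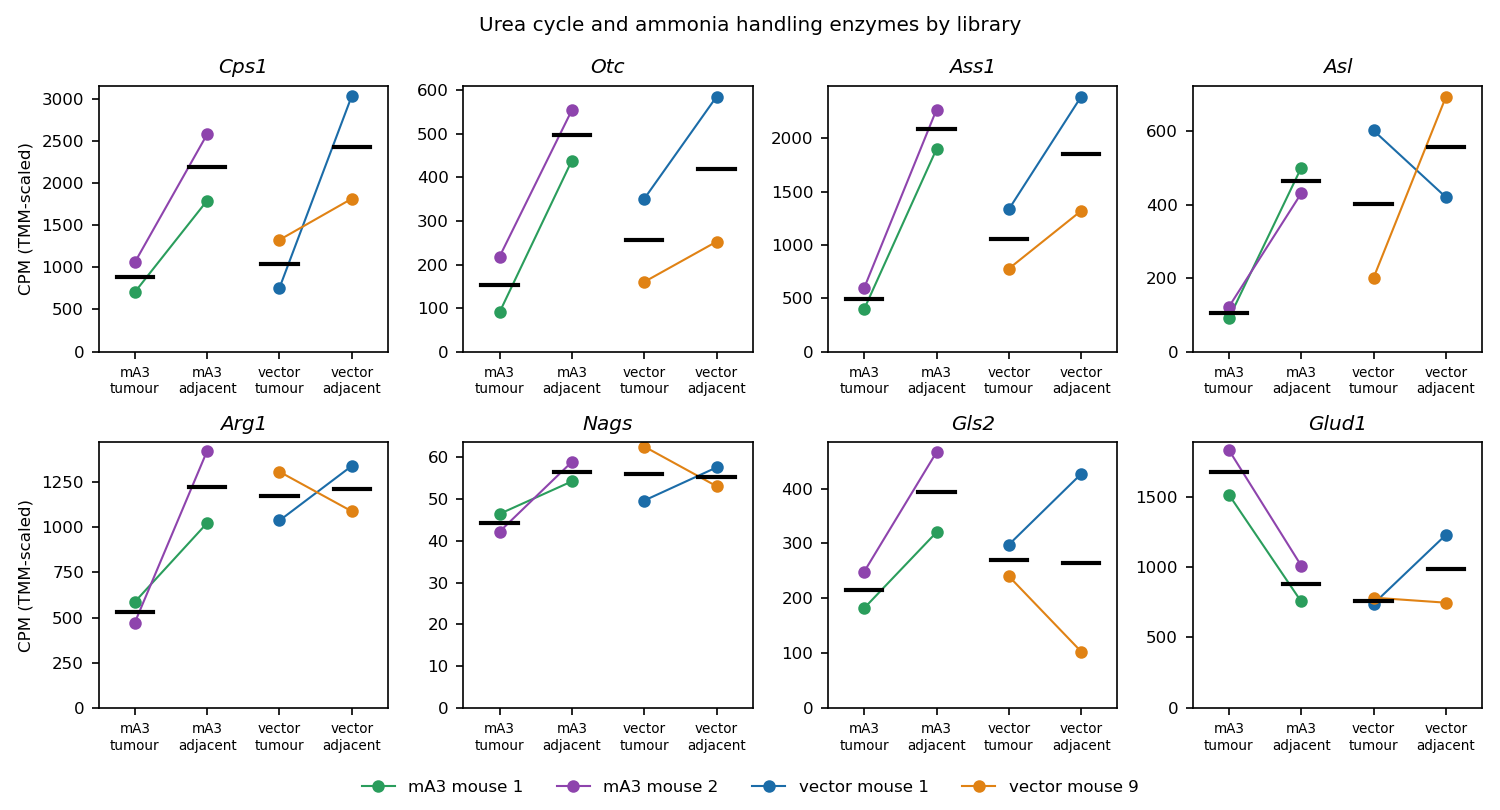
Each panel gives the CPM of 1 enzyme (y axis, from 0, own scale per panel) by group (x axis), with 1 point per library, lines joining the libraries of 1 mouse and black bars for the mean of the 2 libraries of a group. Tumour points of Cps1 all lie below its adjacent points, and the 2 tumours labelled mA3 are lowest for Ass1, Asl and Arg1 and highest for Glud1.

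Over both plasmids, 0 of the 8 enzymes passed edgeR's quasi-likelihood test between tumour and adjacent liver, beside 4.64% of all genes tested (696 of 15009), of which 2.94% were higher and 1.69% lower in tumour. In the same test 4 of them, Cps1, Otc, Ass1 and Asl, had an unadjusted p under 0.05, all lower in tumour. Among all 15009 genes tested 3366 did, 1585 of them lower in tumour and 1781 higher. The median difference of the 8 was -0.92 on the log2 scale, beside 0.01 for all genes tested, and 7 of the 8 differences were below 0. DESeq2 called the same 4 enzymes lower (adjusted p = 0.00197 for Cps1, 0.0334 for Otc, 0.000223 for Ass1 and 0.00719 for Asl). Among all genes it called 1940, of which 1054 were higher in tumour. Over the 12 alternatives the adjusted p ran up to 0.317 for Cps1, 0.423 for Otc, 0.251 for Ass1 and 0.320 for Asl, each highest with 1 library left out.

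Cell type markers were read beside the enzymes over the same libraries, and the marker genes named here were chosen after their values were seen. Summed hepatocyte markers ranged over 94387 to 219194 CPM in tumours and 47974 to 120965 CPM in adjacent liver, but 63.9% to 78.1% of the sum in tumours and 44.0% to 69.1% in adjacent liver was Alb, albumin. Without Alb the other 9 markers summed to 34068 to 54941 CPM in tumours and 26881 to 37328 CPM in adjacent liver. The 10 markers did not move together: 7 differences were above 0 and 3 below, Apoa1 rose (1.66 ± 0.36, edgeR adjusted p = 0.0450) and Cyp3a11 fell (-2.16 ± 0.45, edgeR adjusted p = 0.0398). Bile duct markers summed to 103 to 614 CPM in tumours and 41.6 to 57.0 CPM in adjacent liver, of which Spp1, osteopontin, made up 81.2% to 96.5% in tumours and 76.8% to 93.0% in adjacent liver. Spp1 alone of the 5 tested duct markers passed (2.39 ± 0.54, edgeR adjusted p = 0.0489). Of these 5 duct differences, 4 were above 0 and 1 below. Sox9 (2.04 ± 0.53, edgeR adjusted p = 0.0716) did not pass. It was higher in every tumour than in every adjacent library, as were 6.81% of all genes tested. Epcam (0.35 ± 0.45) and the duct keratins Krt7 (0.68 ± 0.55) and Krt19 (-0.11 ± 0.54) did not pass either. The 5 listed genes other than Spp1 summed to 12.9 to 28.3 CPM in tumours and 3.36 to 9.65 CPM in adjacent liver. Macrophage markers summed to 74.1 to 162 CPM in tumours and 134 to 376 CPM in adjacent liver. All 6 of their differences were below 0, and 1 gene, the Kupffer cell receptor Clec4f, fell (-1.66 ± 0.32, edgeR adjusted p = 0.0334). Stellate and fibroblast markers summed to 50.8 to 214 CPM in tumours and 35.5 to 71.2 CPM in adjacent liver, with 6 of 7 differences above 0 and 0 past the test. Each of these 4 calls was lost in at least 5 of the 8 fits that left out 1 library. With the mouse as a block Apoa1 and Spp1 no longer passed (edgeR adjusted p = 0.0588 and 0.0745). Lymphocyte markers (7.02 to 11.4 CPM in tumours, 5.22 to 12.5 CPM in adjacent liver) and endothelial markers (152 to 248 CPM in tumours, 168 to 219 CPM in adjacent liver) overlapped between the tissues. The sums of hepatocyte, macrophage, and stellate and fibroblast markers overlapped as well, and only those of bile duct markers did not. No marker of these 6 lists was at 0 in every library, and the part of these cell types in the enzyme values was not tested.

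Within the mice, Cps1, Otc and Ass1 were lower in tumour than in the adjacent liver of the same animal in 4 of 4 mice, a pattern shown by 14.8% of all genes tested, while 15.8% were higher in all 4 mice. Tumour Ass1 was 21.0% and 26.3% of the adjacent level in mA3 mice 1 and 2, and 55.8% and 58.9% in vector mice 1 and 9. Otc stood at 20.5% and 39.3% in the mA3 mice and at 59.9% and 63.4% in the vector mice. Cps1 was at 39.4% and 41.0% in the mA3 mice and 24.9% and 73.1% in the vector mice.

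The other 5 enzymes differed in direction in 1 mouse each. Asl was at 18.0% and 28.2% of the adjacent level in mA3 mice 1 and 2 and at 28.9% in vector mouse 9, but at 143% in vector mouse 1. For Arg1 the values were 57.3% and 33.2% in the mA3 mice, and 77.4% and 120% in vector mice 1 and 9. Gls2 was at 56.8% and 53.3% in the mA3 mice, 69.8% in vector mouse 1 and 234% in vector mouse 9, the mouse with the low adjacent value. Nags was at 85.6% and 71.6% in the mA3 mice and at 86.2% and 118% in the vector mice. Glud1 went the other way, with 201% and 181% in the mA3 mice, against 60.1% in vector mouse 1 and 105% in vector mouse 9. Both mA3 mice had a lower percentage than both vector mice for Otc, Ass1, Asl, Arg1, Nags and Gls2 (6 of 8), beside 18.7% of all genes tested, and a higher one for Glud1, beside 17.9%. For Asl and Nags the nearest mice were less than 1 percentage point apart, and the interaction test given below passed for 0 of the 8.

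**Figure D3:**
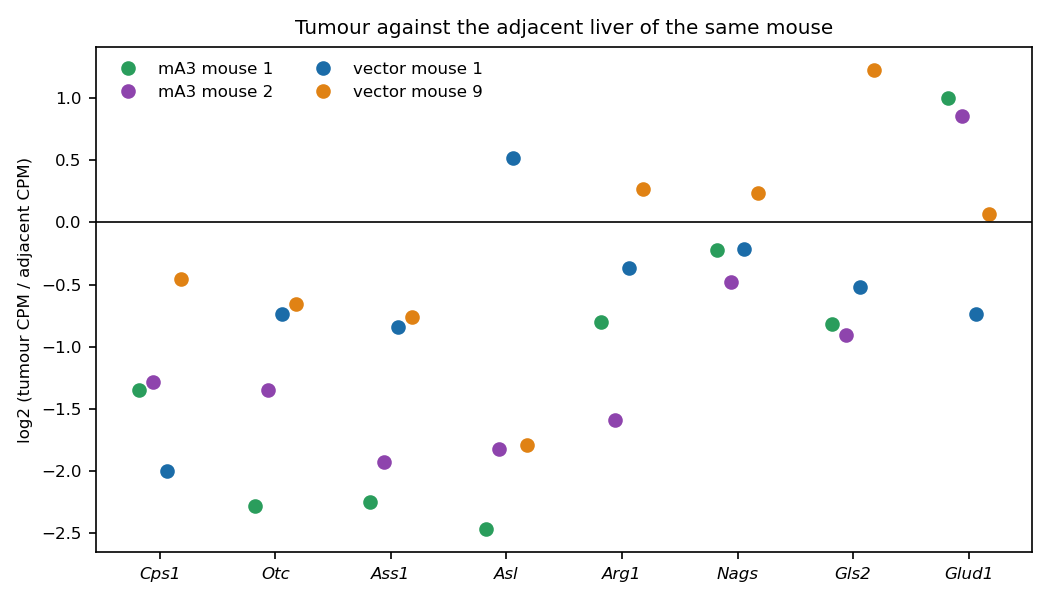
Points give the log2 ratio of tumour CPM over adjacent CPM of the same mouse (y axis) for each enzyme (x axis), 1 point per mouse. All 4 points lie below 0 for Cps1, Otc and Ass1, and both mA3 mice lie above 0 for Glud1, at 201% and 181% of the adjacent level.

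In mA3 mice alone, both tumours lay below both adjacent libraries for 7 of the 8 enzymes, beside 28.3% of all genes, and above them for Glud1, beside 29.7% of all genes. None of the 8 passed edgeR's test, beside 1.19% of all genes tested (0.786% higher and 0.4% lower in tumour). Of the 8, 5 had an unadjusted p under 0.05, beside 3002 of all genes. DESeq2 called those 5 enzymes, beside 1607 of all genes. The 2 largest fitted differences were -2.14 ± 0.56 for Asl (edgeR adjusted p = 0.0913) and -2.07 ± 0.50 for Ass1 (edgeR adjusted p = 0.0746). Otc differed by -1.69 ± 0.62 (edgeR adjusted p = 0.179), Cps1 by -1.31 ± 0.50 (0.193) and Arg1 by -1.21 ± 0.39 (0.142). The smaller differences were -0.87 ± 0.61 for Gls2 and -0.35 ± 0.27 for Nags, and Glud1 differed by 0.92 ± 0.41 (edgeR adjusted p = 0.261). The DESeq2 adjusted p was 0.000236 for Ass1, 0.00160 for Asl, 0.0105 for Arg1, 0.0423 for Otc and 0.0455 for Cps1. Over the 12 alternatives the adjusted p reached 0.456 for Ass1, 0.470 for Asl, 0.576 for Arg1, 0.678 for Otc and 0.717 for Cps1.

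Calls in mA3 mice also turned on the libraries that set the spread. Ass1 passed with the mouse as a block (-2.09, edgeR adjusted p = 0.0478). Without vector tumour 1, Ass1 and Asl both passed in mA3 mice (edgeR adjusted p = 0.0360 and 0.0222), and without vector tumour 9 they did so as well (edgeR adjusted p = 0.0374 and 0.0228). Their fitted differences stayed at -2.07 and -2.14, since neither library belongs to that comparison.

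In vector mice alone, Cps1 alone of the 8 enzymes had both tumours below both adjacent libraries, beside 16.5% of all genes, and none had both above, beside 18.2%. Its fitted difference of -1.22 ± 0.50 was close to that in mA3 mice and did not pass (edgeR adjusted p = 0.529). Ass1 differed by -0.81 ± 0.48, Otc by -0.71 ± 0.61, Asl by -0.47 ± 0.54 and Glud1 by -0.38 ± 0.41. Arg1 differed by -0.05 ± 0.39, Gls2 by 0.02 ± 0.61 and Nags by 0.02 ± 0.27. In this comparison 0 of 8 enzymes and 0% of all genes passed edgeR's test, with 1 of the 8 and 1397 of all genes at an unadjusted p under 0.05. DESeq2 called 0 of the 8 and 230 of all genes.

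Among tumours, those labelled mA3 were both below both vector tumours for Ass1, Asl, Arg1 and Nags, beside 27.4% of all genes, and both above for Glud1, beside 27.8%. Asl differed by -1.92 ± 0.56 (edgeR adjusted p = 0.295), Arg1 by -1.15 ± 0.39 (0.312) and Ass1 by -1.09 ± 0.49 (0.359). Glud1 differed by 1.14 ± 0.41 (edgeR adjusted p = 0.313). The remaining differences were -0.73 ± 0.61 for Otc, -0.34 ± 0.27 for Nags, -0.32 ± 0.61 for Gls2 and -0.24 ± 0.49 for Cps1. Here 0 of 8 enzymes and 0% of all genes passed edgeR's test, with 3 of the 8 and 2127 of all genes at an unadjusted p under 0.05. DESeq2 called 508 genes, among them Asl (adjusted p = 0.0163) and Arg1 (0.0397), both lower in tumours labelled mA3. Without vector tumour 9, Asl differed by -2.50 and passed edgeR's test as well (adjusted p = 0.0460). Over the 11 alternatives the adjusted p ran from 0.00899 to 0.899 for Asl and from 0.0397 to 0.869 for Arg1.

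In adjacent liver the mA3 and vector libraries overlapped for all 8 enzymes, where 9.9% of all genes lay wholly lower and 10.4% wholly higher in mA3 mice. Fitted differences ran from -0.26 ± 0.54 for Asl to 0.57 ± 0.61 for Gls2, with an edgeR adjusted p of 1 for each. None of the 8 and 0% of all genes passed, with 0 of the 8 and 155 of all genes at an unadjusted p under 0.05 and 0 genes called by DESeq2. The mA3 adjacent liver also had more Apobec3 than its vector counterpart in both libraries, as given above.

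The interaction tested whether the difference of tumour from adjacent liver itself differed between mA3 and vector mice. It was -1.66 ± 0.77 for Asl, -1.25 ± 0.68 for Ass1, -1.16 ± 0.55 for Arg1 and 1.30 ± 0.58 for Glud1, with an edgeR adjusted p of 0.842 for each. For Cps1 it was -0.09 ± 0.69 (edgeR adjusted p = 0.987). Among the 8 enzymes 0 passed and 0 had an unadjusted p under 0.05, beside 0% of all genes passing, 749 at an unadjusted p under 0.05, and 12 genes called by DESeq2 with none of the 8 among them. A larger tumour difference in mA3 mice than in vector mice was therefore not shown for any of these enzymes.

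**Figure D4:**
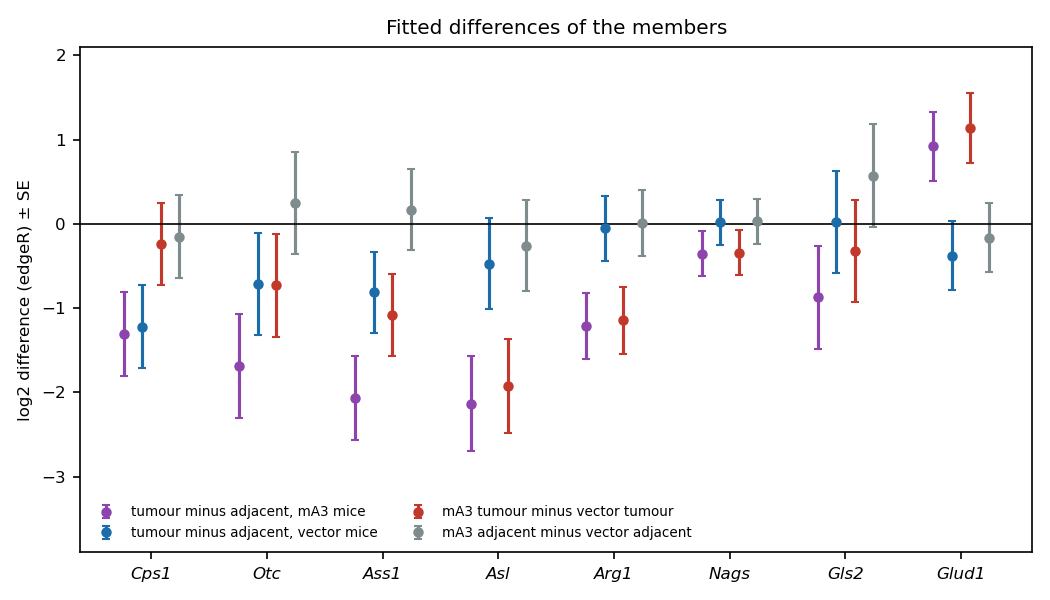
Points give the fitted log2 difference of each enzyme (x axis) with bars of ± 1 SE in 4 comparisons named in the legend, where a value above 0 is higher in the group named first. Cps1 has almost the same tumour difference in both plasmid groups, -1.31 in mA3 mice and -1.22 in vector mice, while Glud1 stands at 0.92 and -0.38.

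Across the 8 libraries Otc and Ass1 followed each other most closely among the 28 pairs of enzymes, with a Pearson correlation of log2 CPM of 0.956. Arg1 with Nags reached 0.936, Ass1 with Asl 0.852 and Cps1 with Ass1 0.804. Glud1 was negatively correlated with 6 of the other 7, from -0.770 with Asl to -0.176 with Cps1, and reached 0.101 with Gls2. These correlations describe 8 libraries that share mice, tissue and plasmid groups, so points are not independent.

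Ratios of 2 enzymes within a library were read per gene length. The ratio of Glud1 over Cps1 in FPKM was 2.62 and 2.11 in tumours labelled mA3 and 1.19 and 0.720 in vector tumours, against 0.514 and 0.478 in mA3 adjacent liver and 0.493 and 0.502 in vector adjacent liver. All 4 tumours were above all 4 adjacent libraries, and the CPM of Cps1 alone also separated the tissues, as given above. Glud1 exceeded Cps1 in 3 of the 4 tumours and in no adjacent library. How often ratios of other gene pairs separate these libraries was not counted. The ratio of Arg1 over Glud1 was 1.20 and 0.798 in tumours labelled mA3 and between 3.37 and 5.17 in the other 6 libraries. A ratio shows unequal levels and not which of the 2 genes differed.

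The genes whose log2 CPM was most like the mean of the 8 enzymes over the 8 libraries, among other genes with a mean of at least 5 CPM, were Adh5 (r = 0.987), Cutc (0.986), Abhd15 (0.984), Aldh8a1 (0.984) and C9 (0.982). Adh5, a formaldehyde-clearing dehydrogenase, had 123 and 151 CPM in tumours labelled mA3 and 258 and 203 CPM in vector tumours, against 307 and 412 CPM in mA3 adjacent liver and 513 and 272 CPM in vector adjacent liver. C9, a secreted complement component, had 38.3 and 63.7 CPM in tumours labelled mA3 and 210 and 105 CPM in vector tumours, against 505 and 587 CPM in mA3 adjacent liver and 581 and 226 CPM in vector adjacent liver. In both genes the 2 tumours labelled mA3 were lowest and vector adjacent 1 or mA3 adjacent 2 highest. Of the enzymes themselves, Ass1 was nearest to the shared mean (0.987) and Glud1 farthest (-0.406), though each enzyme is part of that mean.

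Genes that feed or drain the cycle were read from pathway lists, over both plasmids and with the same edgeR test. Of the mitochondrial supply list, 10 of 11 genes were tested, 0 rose and 1 fell, with a median of -0.19. The gene that fell was Slc25a15, the carrier that brings ornithine into mitochondria for Otc. Slc25a15 had 61.1 and 79.8 CPM in tumours labelled mA3 and 100 and 107 CPM in vector tumours, against 144 and 278 CPM in mA3 adjacent liver and 226 and 171 CPM in vector adjacent liver. All 4 tumours were below all 4 adjacent libraries, and the difference was -1.26 ± 0.28 (edgeR adjusted p = 0.0463). Such separation held for 5.32% of all genes tested, a share that applies also to Glul, Aass and Oat below. These genes are named by their small p in the same comparison, so the separation adds no support of its own. Slc25a13, which exports the aspartate used by Ass1, differed by -1.21 ± 0.32 (edgeR adjusted p = 0.0722), and the mitochondrial deacetylase Sirt3 by -1.11 ± 0.30 (edgeR adjusted p = 0.0765).

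Of the glutamine and ammonia transport list, 9 of 11 genes were tested and 0 passed, with 5 at an unadjusted p under 0.05 and a median of -0.05. Glul, glutamine synthetase, had 17.8 and 117 CPM in tumours labelled mA3 and 726 and 135 CPM in vector tumours, against 1031 and 914 CPM in mA3 adjacent liver and 966 and 1387 CPM in vector adjacent liver. The 4 tumours were below the 4 adjacent libraries, vector tumour 1 by the least, and the difference of -2.65 ± 0.69 did not pass (edgeR adjusted p = 0.0718). The amino acid transporter Slc38a4 differed by -1.16 ± 0.33 (edgeR adjusted p = 0.0840).

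The nitrogen feeding list holds enzymes that pass amino acid nitrogen to ammonia, glutamate or aspartate. All 12 were tested, 0 rose and 1 fell, with a median of -0.48. Aass, which opens lysine breakdown, had 73.3 and 92.0 CPM in tumours labelled mA3 and 152 and 135 CPM in vector tumours, against 183 and 244 CPM in mA3 adjacent liver and 324 and 361 CPM in vector adjacent liver. It fell by 1.31 ± 0.23 on the log2 scale (edgeR adjusted p = 0.0270), with all 4 tumours below all 4 adjacent libraries. Amt, of the glycine cleavage system, differed by -0.73 ± 0.17 (edgeR adjusted p = 0.0548) and the serine dehydratase Sds by -1.10 ± 0.49 (edgeR adjusted p = 0.236).

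Of the arginine and ornithine use list, 11 of 12 genes were tested, 1 rose and 1 fell, with a median of -0.20. Oat turns ornithine into a precursor of glutamate and proline. It had 8.86 and 61.6 CPM in tumours labelled mA3 and 584 and 84.8 CPM in vector tumours, against 1058 and 781 CPM in mA3 adjacent liver and 1088 and 1567 CPM in vector adjacent liver. Vector tumour 1 was again the tumour nearest to adjacent liver, although all 4 tumours were below all 4 adjacent libraries, and Oat fell by 3.35 ± 0.76 on the log2 scale (edgeR adjusted p = 0.0497). Pycr1, which makes proline in mitochondria, had 7.28 and 4.85 CPM in tumours labelled mA3 and 0.344 and 1.77 CPM in vector tumours, against 0.566 and 0.412 CPM in mA3 adjacent liver and 0.401 and 0.314 CPM in vector adjacent liver. Vector tumour 1 lay within the range of adjacent liver, the other 3 tumours above it, and Pycr1 rose by 2.56 ± 0.55 (edgeR adjusted p = 0.0440). Its adjacent levels, at most 0.566 CPM, are near the floor, so the size of this difference rests on few reads there. With the mouse as a block Pycr1 no longer passed (edgeR adjusted p = 0.0547, with a range of 2.1e-05 to 0.186 over the 12 alternatives). Aldh18a1, which starts proline and ornithine synthesis from glutamate, differed by 1.99 ± 0.52 (edgeR adjusted p = 0.0707).

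Markers of the 2 liver zones were read beside the enzymes. Of the periportal list all 13 genes were tested, 1 rose and 0 fell, with a median of -0.50. The differences were above 0 for 4 genes and below 0 for 9. An unadjusted p under 0.05 was found for 7 of them, beside 3366 of all genes tested. The gene that rose was Cdh1, E-cadherin, by 2.85 ± 0.40 (edgeR adjusted p = 0.0181). It had 225 and 190 CPM in tumours labelled mA3 and 32.7 and 117 CPM in vector tumours, against 27.1 and 27.1 CPM in mA3 adjacent liver and 13.0 and 9.18 CPM in vector adjacent liver. Cdh1 is also expressed by bile duct cells, so it does not follow the zone alone. Pigr, the receptor that carries IgA into bile, differed by -1.88 ± 0.44 (edgeR adjusted p = 0.0528), and Igfals, a secreted partner of insulin-like growth factors, by -2.04 ± 0.50 (edgeR adjusted p = 0.0615).

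Of the pericentral list 12 of 13 genes were tested, 0 rose and 2 fell, all 12 differences were below 0, and 11 had an unadjusted p under 0.05. The median was -2.48, beside -0.92 for the 8 enzymes and -0.50 for the periportal list. These are not separate sets of genes. Gls2 is both one of the 8 enzymes and on the periportal list, which also shares Hal and Sds with the nitrogen feeding list. The pericentral list shares Glul, Slc1a2 and Oat with lists given above. The 2 pericentral genes that fell were Oat, given above, and Axin2, a target and inhibitor of Wnt signalling. Axin2 had 1.08 and 1.20 CPM in tumours labelled mA3 and 8.14 and 3.48 CPM in vector tumours, against 10.7 and 5.29 CPM in mA3 adjacent liver and 7.17 and 18.5 CPM in vector adjacent liver. Vector tumour 1 overlapped with adjacent liver, and the difference was -1.97 ± 0.44 (edgeR adjusted p = 0.0481). With the mouse as a block Axin2 no longer passed (edgeR adjusted p = 0.0787, with a range of 1.8e-06 to 0.174 over the 12 alternatives).

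All 6 of these called genes lost the call in some fit that left out 1 library. Slc25a15 passed in none of the 8 such fits (edgeR adjusted p from 0.0574 to 0.212), and Oat and Pycr1 passed only without vector tumour 1. Aass passed only without vector adjacent 9 or vector tumour 1, and Axin2 only without vector adjacent 1 or vector tumour 1. Cdh1 lost the call without mA3 adjacent 1, mA3 adjacent 2 or mA3 tumour 1. In the other 5 comparisons no gene of these lists passed edgeR's test.

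**Figure D5:**
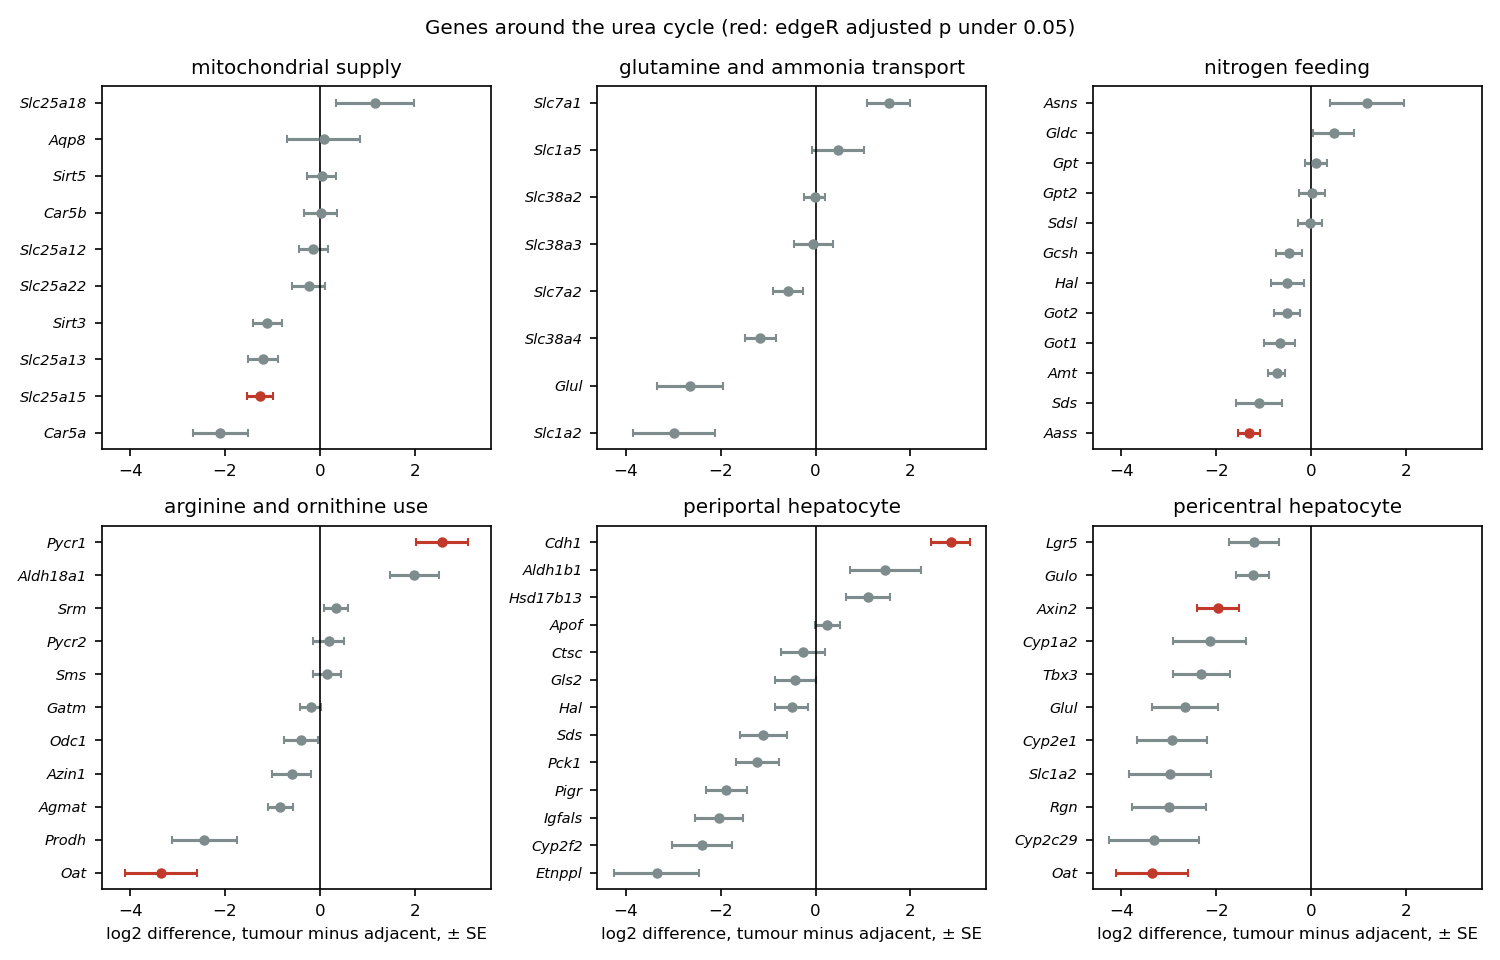
Each panel gives the fitted log2 difference of tumour minus adjacent liver over both plasmids (x axis, ± 1 SE) for tested genes of 1 list (y axis; a few are not shown), with genes past an edgeR adjusted p of 0.05 in red. All pericentral genes plotted lie left of 0, while the other panels hold genes on both sides, such as Pycr1 at 2.56 and Oat at -3.35.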

How the data were processed

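Total RNA extracted with Trizol from frozen tissue was sequenced from Illumina libraries, per the labels' protocols. The deposited table gives raw read counts and FPKM values per gene and library, per the file headers. Which aligner, counter and strand setting the authors used is not given in the sources used here. The submitters' processing notes name mm8 and the microarray program Agilent Feature Extraction 10.7, whereas positions in the deposited table matched GENCODE vM21 (GRCm38) for 81.6% of 34267 shared genes within 1 bp. For each of 7555 genes with 100 or more counts per library, the authors' FPKM implied 1 gene length, equal across libraries within 1%.

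Counts were fitted with edgeR 4.0.16 under R 4.3.3. The fit used filterByExpr by group, TMM scaling, 1 coefficient for each of 4 groups, 4 residual degrees of freedom and Benjamini-Hochberg adjustment over 15009 genes, with a threshold of 0.05. The biological coefficient of variation was 39.1%. SEs of log2 differences came from the quasi-likelihood F statistic. Correlations used log2 CPM with a prior count of 2. The procedure was also run on simulated libraries, only for tumour against adjacent liver over both plasmids, and the outcome is not reported here. Those libraries were drawn independently, without an effect of the mouse, so the run does not bear on the pairing or on the other comparisons. Alternatives were RLE size factors, no low-count filter, DESeq2 1.42.0, the mouse as a block, and leaving out each library.

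The labels give tumour and adjacent libraries of a mouse 1 number, which pairs them. Deviations of paired libraries from their group means correlated across genes at 0.175 in mA3 mice and 0.107 in vector mice. The 8 genes, the lists and the tests were chosen with earlier results of these data known. Named were all 8 enzymes, Apobec3, the 5 genes most like their mean, and from each pathway list the genes past the threshold over both plasmids plus those of smallest p up to 3 per list. Some list genes that this rule names are not reported here. Marker lists of 6 cell types are given as summed CPM.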

Additional observations from a re-analysis of the deposited data

How the results depend on the processing

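With RLE size factors no enzyme was called in any comparison. Without the low-count filter 4 enzymes were called over both plasmids, 3 in mA3 mice and 1 between tumours, against 2450, 2063 and 1084 of all genes, and 674 genes in vector mice, 56 in adjacent liver and 316 in the interaction. DESeq2 called 4, 5 and 2 enzymes in those 3 comparisons, against 1940, 1607 and 508 of all genes, and 230 genes in vector mice and 12 in the interaction. The replicate block (mouse) called 1 enzyme, Ass1, over both plasmids and 1 in mA3 mice, where it called 560 of all genes; over both plasmids it called 879. It changed no other enzyme's call.

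With 1 library left out, 0 to 2 enzymes were called over both plasmids and in mA3 mice, 0 to 1 between tumours and 0 in the other comparisons. All-gene counts were 0 to 1622 over both plasmids, 0 to 1090 in mA3 mice, 0 to 142 in vector mice and 0 to 270 between tumours. Over both plasmids the count was 0 without mA3 adjacent 1 or 2, 6 without mA3 tumour 1, 136 without mA3 tumour 2. Omitting vector adjacent 1 gave 240 calls, vector tumour 9 gave 260 and vector tumour 1 gave 1622. In mA3 mice it was 0 without any of the 4 mA3 libraries, 308 without vector adjacent 9, and 1090 and 1074 without vector tumours 1 and 9. Leaving out a library of a group leaves 1 sample, assumed to vary like the other groups.

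Of the enzymes' directions, that of Gls2 in vector mice turned to -0.0020 with RLE factors, -0.028 without the filter and -0.0020 with DESeq2. With 1 library left out, Gls2 ran from -0.78 to 0.26 over both plasmids. In vector mice the ranges were -1.40 to 0.011 for Otc, -1.48 to 0.10 for Asl, -0.24 to 0.10 for Arg1, -0.17 to 0.17 for Nags, -0.68 to 1.38 for Gls2 and -0.70 to 0.022 for Glud1. Between tumours Cps1 ran from -0.59 to 0.23, and in the interaction from -0.51 to 0.38. In adjacent liver they were -0.48 to 0.27 for Cps1, -0.24 to 0.98 for Otc, -0.20 to 0.66 for Ass1, -0.57 to 0.14 for Asl, -0.25 to 0.21 for Arg1, -0.037 to 0.092 for Nags, -0.12 to 1.94 for Gls2 and -0.48 to 0.24 for Glud1. Over both plasmids the other 7 enzymes kept their direction in every fit, with Ass1 from -1.66 to -1.20 and Cps1 from -1.50 to -1.06 with 1 library left out. The cause of these shifts was not tested. Each group had 2 libraries, the fit had 4 residual degrees of freedom, and each enzyme had at least 677 counts in a library. What limits precision here was not tested.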

Other observations

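Carbamoyl phosphate is also made in the cytosol for pyrimidine synthesis by Cad, the enzyme that opens that pathway. All 5 genes of the pyrimidine list were tested over both plasmids and 0 passed edgeR's test, with 1 at an unadjusted p under 0.05 and a median of -0.17. Cad had 21.3 and 22.4 CPM in tumours labelled mA3 and 22.4 and 8.95 CPM in vector tumours, against 9.50 and 7.89 CPM in mA3 adjacent liver and 8.78 and 13.9 CPM in vector adjacent liver. Vector tumour 9 lay among the adjacent libraries and the other 3 tumours above them, and the difference was 0.90 ± 0.32 (edgeR adjusted p = 0.146). Ctps, which makes CTP, differed by 0.42 ± 0.29 (edgeR adjusted p = 0.434) and Dhodh, the mitochondrial step of the pathway, by -0.36 ± 0.27 (edgeR adjusted p = 0.478).

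Of 12 hormone and transcription factor regulators of liver metabolism, all were tested over both plasmids and 0 passed edgeR's test, with 2 at an unadjusted p under 0.05 and a median of -0.19. Cebpa, a factor of hepatocyte differentiation, had 266 and 190 CPM in tumours labelled mA3 and 298 and 193 CPM in vector tumours, against 422 and 439 CPM in mA3 adjacent liver and 528 and 234 CPM in vector adjacent liver. Vector adjacent 9 overlapped with the tumours, and the difference was -0.78 ± 0.33 (edgeR adjusted p = 0.214). Cebpb, its acute-phase relative, differed by -0.59 ± 0.29 (edgeR adjusted p = 0.284). The insulin receptor gene Insr had 220 and 255 CPM in tumours labelled mA3 and 149 and 148 CPM in vector tumours, against 94.7 and 113 CPM in mA3 adjacent liver and 161 and 116 CPM in vector adjacent liver. The tumours labelled mA3 were the 2 highest libraries, and the difference over both plasmids was 0.65 ± 0.22 (edgeR adjusted p = 0.139).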
